A study of Rattus norvegicus with 3 samples.

Results

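The 49 cell cycle genes described here were taken from a fixed list of cyclins, cyclin-dependent kinases, their inhibitors, E2F and pocket proteins, replication genes, mitotic genes, Myc, Mycn and Mdm2. A gene was counted as having a peak when the authors' annotation of the Seh1 peaks of oligodendrocyte progenitor cells named it as the gene with the nearest transcription start site (TSS). By that rule 18 of the 49 genes had at least 1 peak, and together they had 35 of the 9084 annotated peaks. Geminin was looked up as Gmnn, the rat symbol, and all 49 genes were found in the gene table.

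Seh1, a component of the nuclear pore complex, was mapped on chromatin by ChIP-seq, the sequencing of DNA that precipitates with the protein, in primary cells from the forebrain of Sprague Dawley rat pups aged 1 to 2 days after birth. Seh1 was precipitated from immature oligodendrocytes (iOL), which had 1 day of triiodothyronine (T3, 60 nM) with PDGF-AA, bFGF and NT3 removed, and from oligodendrocyte progenitor cells (OPC), kept in those growth factors. Both cultures shared the B-27, N2 and CNTF supplements. IgG was precipitated from iOL as the control, and its profile was not analysed here. Each stage had 1 Seh1 library, so no difference between iOL and OPC could be set against replicate error. The sources used here do not say whether cells of several pups were pooled. In iOL 6704 peaks of 209 bp were called and in OPC 9117 peaks of 205 bp, with positions on build rn6. The sources used here give no read totals, so the depth is unknown, and the binomial intervals below cover only counting error. A peak list carries no RNA level, so the cell type labels were not checked against marker genes.

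OPC divide under growth factors, and T3 drives them to leave the cell cycle and differentiate. Entry into S phase starts when D-type cyclins with Cdk4 or Cdk6, and then E-type cyclins with Cdk2, phosphorylate the pocket proteins Rb1, Rbl1 and Rbl2, which releases E2F factors to switch on replication genes. Inhibitors of the Cdkn1 and Cdkn2 families hold these kinases back. B-type cyclins with Cdk1, the Aurora and Polo kinases and the spindle checkpoint then carry the cell through mitosis.

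Seh1 peaks of OPC lay within 1 kb of the TSS of 5 of the cell cycle genes: Mki67, Bub1b, Cdkn2a, Mycn and E2f3. That was 10.2% of the 49 genes (95% exact binomial interval 3.40 to 22.2%), beside 4.46% of all 18539 coding genes. RefSeq promoter windows were at hand for 4 of these 5 genes and not for Mycn. The 250 bases before the RefSeq start of Mki67, Bub1b and E2f3 are shown on build GRCr8. They were picked from the 4 because they differ in the promoter elements they hold. Cdkn2a is not shown, although its peak, centred at 123 bp, lay nearer to its TSS than that of E2f3, at 574 bp. Capitals mark the CHR element (TTTGAA), the CCAAT box (CCAAT) and an E2F site (TTTCCCGC, read on either strand), which are elements known from promoters of cell cycle genes. Adjoining capitals at Mki67 are a CHR element overlapped by a CCAAT box on the other strand.
Mki67, chr1:199952594-199952843, minus strand: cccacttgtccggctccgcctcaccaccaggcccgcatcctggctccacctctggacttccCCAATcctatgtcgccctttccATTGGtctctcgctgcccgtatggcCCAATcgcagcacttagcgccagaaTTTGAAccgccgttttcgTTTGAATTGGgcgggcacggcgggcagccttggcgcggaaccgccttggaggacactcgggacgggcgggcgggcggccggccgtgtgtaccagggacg
Bub1b, chr3:126016817-126017066, plus strand: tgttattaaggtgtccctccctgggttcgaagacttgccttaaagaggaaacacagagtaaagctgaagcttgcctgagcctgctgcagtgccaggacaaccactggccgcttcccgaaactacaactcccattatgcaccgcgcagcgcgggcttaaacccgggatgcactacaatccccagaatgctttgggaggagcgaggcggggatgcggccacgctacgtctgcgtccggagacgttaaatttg
E2f3, chr17:34810166-34810415, plus strand: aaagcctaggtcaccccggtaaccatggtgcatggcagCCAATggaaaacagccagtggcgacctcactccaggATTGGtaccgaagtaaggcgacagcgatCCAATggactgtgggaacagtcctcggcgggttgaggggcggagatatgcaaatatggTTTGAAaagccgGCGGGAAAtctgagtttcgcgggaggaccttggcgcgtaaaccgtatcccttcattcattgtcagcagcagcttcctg

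In these windows Mki67 had CHR elements starting at -117 and -99 and CCAAT boxes on either strand, the farthest from the start at -189 and the nearest at -94. E2f3 had a CHR element at -90, an E2F site at -78 and 3 CCAAT boxes between -212 and -148. Bub1b had a CHR element at -4, which runs across the start and is not in capitals, and no CCAAT box or E2F site. The Cdkn2a window held none of these 3 elements.

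The peaks themselves lay on the transcribed side of these starts, so they overlap the printed bases little or not at all. By the authors' distances on rn6, the Mki67 peak ran from -27 to 177 bp and the Bub1b peak from -11 to 193 bp. The RefSeq start on GRCr8 and the TSS used by the authors on rn6 may differ, which was not tested.

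Across 35 of the 49 genes with a promoter window of 300 bases, E2F sites (TTTCCCGC, TTTGGCGC, TTTCGCGC or TTTGCCGC) were in 11 windows, 31.4%, beside 3.15% of 15738 coding genes. CCAAT boxes were in 22 windows (62.9%, beside 37.95%) and CHR elements in 13 (37.1%, beside 15.3%). The CHR element was found in 8 of 12 windows of genes with an OPC peak and in 5 of 23 windows of genes without one. The 8 genes were Mki67, Bub1b, Cenpa, Cdk1, Ccnb2, E2f3, Rbl2 and Mdm2. This split counts a peak at any distance, so it does not place the peak at the promoter. The nearest peak lay 17.0 kb from the TSS at Mdm2, 17.7 kb at Rbl2 and 49.5 kb at Cdk1. At Ccnb2 it lay 172.0 kb away by an uncertain tie. Genes without a window are missing from both sides. E2F sites were in 2 of 12 windows of genes with a peak (Cdk1 and E2f3) and in 9 of 23 windows of genes without one. Among the latter were Mcm2, Mcm3, Mcm5, Mcm6, Mcm7 and Gmnn. These belong to the replication group, in which 0 of 7 genes had a peak, so the split largely repeats that small group. The E-box CAGATG, which Olig2 and related factors can bind, was in 2 windows (5.71%, beside 13.1%), and CAGCTG was in 6 (17.1%, beside 15.9%). Split in the same way, CCAAT boxes were in 8 of 12 windows of genes with a peak and in 14 of 23 without one. CAGCTG was in 2 of 12 and 4 of 23, and CAGATG in 1 of 12 and 1 of 23. The split was not made over all coding genes, so it has no background share beside it. Both strands were searched, a match is only a match of letters, and no test was made of these shares.

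**Figure D1:**
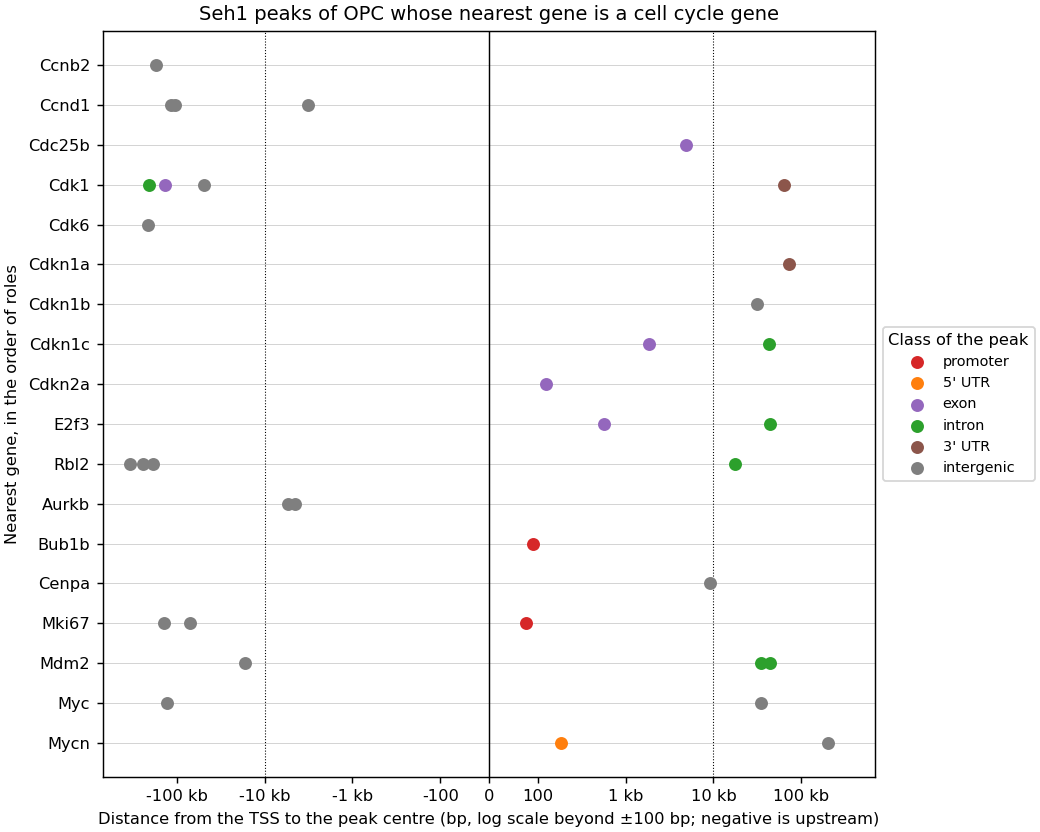
Signed distance from the TSS to the centre of each of the 35 OPC peaks (horizontal axis, in bp, log scale beyond 100 bp on either side), with 1 row for each of the 18 genes and colours for the class of the peak. Dotted lines mark 10 kb; 5 genes have a peak within 1 kb, all downstream of the TSS, while Ccnb2, Cdk6 and Cdkn1a have theirs only beyond 50 kb.

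The share of cell cycle genes with an OPC peak was 36.7% (18 of 49, 95% exact binomial interval 23.4 to 51.7%), beside 30.1% of coding genes, which lies within that interval. Within 10 kb of the TSS it was 10 of 49 genes, 20.4% (10.2 to 34.3%), beside 11.1% of coding genes, near the lower end of the interval. Of the 18 genes 5 had 3 or more peaks, 27.8% (9.69 to 53.5%), beside 12.8% of coding genes with a peak, which lies within that interval. These were Cdk1 and Rbl2 with 4 peaks each, and Ccnd1, Mki67 and Mdm2 with 3 each. The list was chosen with earlier results of these data known, and no test was made against the background.

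Of the 35 peaks 19 lay between genes (54.3%, beside 56.7% of all annotated OPC peaks), 6 in introns (17.1%, beside 29.4%) and 5 in exons (14.3%, beside 6.80%). Promoters held 2 (5.71%, beside 4.02%), 3' UTRs 2 (5.71%, beside 0.837%) and the 5' UTR class 1 (2.86%, beside 0.705%). At 8 genes, 9 peaks lay inside a transcript or promoter of the cell cycle gene itself (25.7%, beside 30.8% of all peaks and their nearest genes), and 7 peaks lay in a transcript of a neighbouring gene. Annotated repeats held 10 peaks (28.6%, beside 31.2%), and a CpG island outside promoters and exons held 1 (2.86%, beside 5.37%).

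Among cyclins, 2 of 8 genes had a peak. Ccnd1, the D-type cyclin that couples growth factors to the cell cycle, had 3 peaks between genes on chromosome 1, all upstream of the TSS. The nearest, 218103340 to 218103544, lay at -3170 bp with a caller's score of 7.02. The others lay at -104.8 kb with a score of 10.2 and at -115.2 kb with a score of 7.02, and their centres were 10.4 kb apart. The score is the authors' own value per peak, without a definition in the file, and its median over all annotated OPC peaks was 7.66. Only 3.74% of those peaks scored higher than the Ccnd1 peak at -104.8 kb. Ccnb2, a mitotic B-type cyclin, had 1 peak between genes at -172.0 kb with a score of 8.3. That peak lay on chromosome 1 (21318765 to 21318969), whereas Ccnb2 lies on chromosome 8 in assembly GRCr8, so its tie to Ccnb2 is uncertain. Of all annotated OPC peaks 0.925% had their gene on another chromosome in GRCr8, and without this peak 17 of 49 genes had one. Ccna2, Ccnb1, Ccnd2, Ccnd3, Ccne1 and Ccne2 were not the nearest gene of any OPC peak.

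Of 6 kinases and Cdc25 phosphatases 3 had a peak, and 1 of their 6 peaks was in the gene itself. Cdc25b, a phosphatase that activates Cdk1, had a peak in exon 11 of 20 at 4866 bp (chromosome 3, 123736303 to 123736507, score 7.02). The peaks tied to Cdk1, the mitotic kinase, were all distant and mostly in neighbouring genes. They lay in a SINE repeat at -49.5 kb, in the last exon of Rhobtb1 at 63.4 kb, in exon 40 of the ankyrin gene Ank3 at -138.1 kb and in an Ank3 intron at -208.0 kb. Their scores were 7.66 for the first 3 and 7.02 for the last. Cdk6, a partner of D-type cyclins, was nearest to 1 peak between genes at -215.5 kb (score 8.3). A pair of further OPC peaks lay inside intron 4 of Cdk6 (chromosome 4, 27815404 to 27815608 and 27817016 to 27817220, scores 7.66 and 7.02) but were nearer to the TSS of Fam133b, so the rule did not count them. Cdk2, Cdk4 and Cdc25a had no peak.

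Of 6 inhibitors 4 had a peak, and the positions ran from an own first exon to a neighbouring gene. Cdkn2a, which encodes an inhibitor of Cdk4 and Cdk6 and, in another reading frame, a regulator of Mdm2, had a peak in its first exon at 123 bp (chromosome 5, 107832180 to 107832384). Its score of 6.38 was low, and 81.4% of OPC peaks scored higher. Cdkn1c, an imprinted inhibitor, had a peak in exon 3 of 4 at 1854 bp (chromosome 1, 216661764 to 216661968) with a score of 12.1, which only 1.49% of peaks exceeded. Its other peak was in the last intron of the adjacent potassium channel gene Kcnq1 at 42.4 kb, with a score of 7.02. Cdkn1b, the inhibitor known for limiting divisions of OPC, had 1 peak between genes at 31.4 kb (score 7.02). Cdkn1a, an inhibitor induced by DNA damage, was tied to a peak in the last exon of the neighbouring gene Cpne5 at 73.0 kb (score 7.66). Cdkn2b and Cdkn2c had none.

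Of 9 E2F and pocket protein genes 2 had peaks. E2f3, an activator of S phase genes, had a peak in exon 2 of 7 at 574 bp (chromosome 17, 36334608 to 36334812) and another in an LTR repeat of intron 2 at 44.4 kb, each with a score of 7.02. Rbl2, a pocket protein of resting cells, had 4 peaks on chromosome 19. The one within the gene lay in a SINE repeat of intron 8 at 17.7 kb, with a score of 6.38. The other 3 lay far upstream, at -189.3 kb with a score of 7.02, in a CpG island at -245.2 kb with a score of 7.66, and in an LTR repeat at -338.2 kb, also at 7.66. E2f1, E2f2, E2f5, E2f7, E2f8, Rb1 and Rbl1 had none.

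Of the 7 replication genes, Pcna, Mcm2, Mcm3, Mcm5, Mcm6, Mcm7 and Gmnn, 0 had an OPC peak, which allows a share of up to 42.9% by 3 counts. Pcna is the sliding clamp of DNA polymerases, the Mcm proteins form the replicative helicase, and Gmnn blocks its reloading. A group of 7 genes is too small to set this apart from the 30.1% of coding genes.

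Of 10 mitotic genes 4 had a peak, 40.0% (exact binomial interval 12.2 to 73.8%), and the interval holds the 30.1% of coding genes. Each of the 4 had a peak within 10 kb of its TSS, so that share was also 4 of 10, beside 11.1% of all coding genes. The same interval, 12.2 to 73.8%, starts just above that 11.1%. In the wider list of 70 other cell cycle genes described below, the share within 10 kb was 8.57%. The group leaves out Cdk1, Ccnb1 and Ccnb2, which also act in mitosis and had no OPC peak within 10 kb. With 10 genes, this choice of group and no test made, the count does not set mitotic genes apart. The promoter peak of Mki67, the gene of a proliferation marker that coats mitotic chromosomes, was centred at 75 bp (chromosome 1, 208020277 to 208020481, score 7.66). Mki67 also had peaks between genes at -70.5 kb and -139.9 kb, with scores of 7.66 and 7.02. The promoter peak of Bub1b, a spindle checkpoint gene, was centred at 91 bp (chromosome 3, 110367983 to 110368187, score 7.02). Aurkb, the kinase of the chromosomal passenger complex, had a pair of upstream peaks whose centres were 912 bp apart. The peak at -4485 bp (chromosome 10, 55622154 to 55622358) had the highest score of the 35, 12.8, which 1.21% of OPC peaks exceeded. The peak at -5397 bp (score 8.94) was annotated to a tRNA-Asp copy, a class not counted among the repeats. Cenpa, the histone H3 variant of centromeres, had a peak in an LTR repeat at 9117 bp (score 7.02). Top2a, Aurka, Plk1, Bub1, Cdc20 and Foxm1 had none.

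Myc, Mycn and Mdm2, a group of 3, all had peaks. Mycn, a growth-promoting transcription factor, had a peak in the 5' UTR of exon 1 at 184 bp (chromosome 6, 38228093 to 38228297, score 7.66) and an LTR peak at 202.4 kb (score 7.02). Both peaks tied to Myc were in repeats, an LTR at 34.9 kb with a score of 7.66 and a RatSatRep2 copy at -128.0 kb with a score of 8.94. Mdm2, a ubiquitin ligase, was tied to an LTR peak at -17.0 kb with a score of 5.75, the lowest of the 35, and to introns of the neighbouring gene Cpm at 35.1 and 44.4 kb with scores of 6.38 and 7.66.

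**Figure D2:**
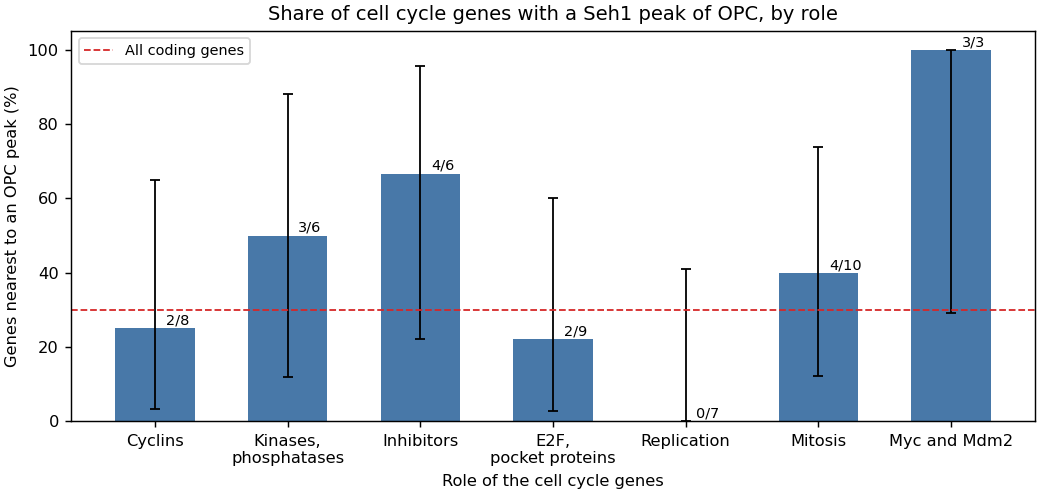
Percent of the genes in each role that were the nearest gene of an OPC peak (bars, with 95% exact binomial intervals and the counts above), beside the 30.1% of all coding genes (dashed line). Shares run from 0 of 7 replication genes to 3 of 3 genes of the Myc and Mdm2 group, and each of the 7 intervals contains the dashed line.

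The scores of the 35 peaks covered 5.75 to 12.8, with a median of 7.66, the median of all annotated OPC peaks. Scores rose in steps of about 0.638, so the 35 peaks held 9 to 20 steps, and their quartiles of 7.02 and 7.66 were 1 step apart. Above the median were 7 peaks (20.0%, beside 27.6% of all), and scores of 10 or more were reached by 3 (8.57%, beside 5.52%), at Aurkb, Cdkn1c and Ccnd1. The 5 peaks within 1 kb of a TSS scored 6.38 to 7.66, none above the median.

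**Figure D3:**
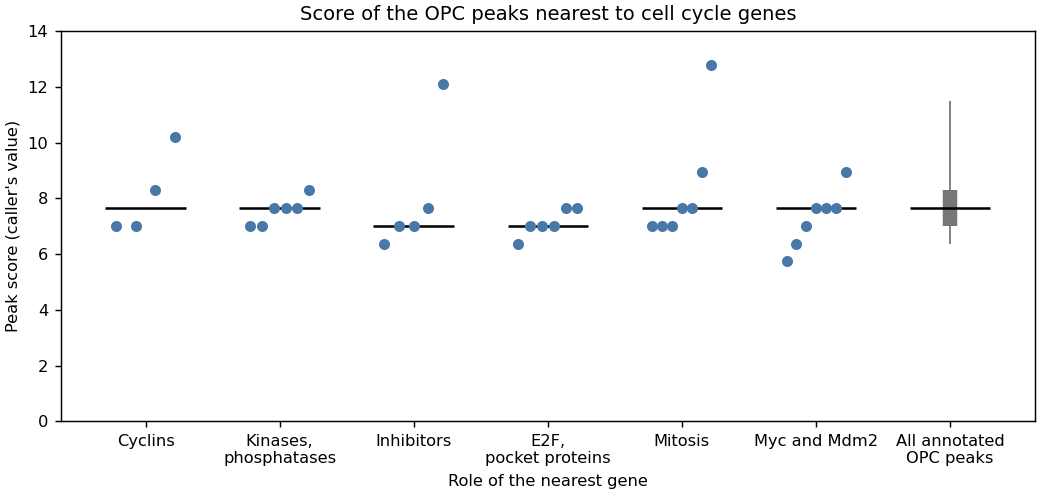
Caller's score of each OPC peak nearest to a cell cycle gene (points, by role, with the median as a line), beside all annotated OPC peaks (median line, box of the quartiles 7.02 and 8.3, thin line over the central 95% of peaks). Replication genes had no peak and are not drawn; most points sit between 6.38 and 8.94, and the single peaks of Aurkb, Cdkn1c and Ccnd1 stand above 10.

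The positions of Seh1 peaks in iOL were then set against these OPC peaks. Of the 35, 0 overlapped an iOL peak, which allows a share of up to 8.57% by 3 counts, beside 1.73% of all annotated OPC peaks. An iOL peak lay within 10 kb of 6 of the 35, 17.1% (95% exact binomial interval 6.56 to 33.6%), beside 10.3% of all, a share that lies within that interval. The interval treats the 35 peaks as independent, although several share a gene or a nearest iOL peak, so it may be too narrow. The median gap from an OPC peak to the nearest iOL peak was 51.5 kb for the 35 and 88.3 kb for all annotated OPC peaks. The 6 peaks belonged to 5 genes, and each scored 7.02 or 7.66.

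The closest pairs were at Rbl2 and E2f3. At E2f3 an iOL peak (chromosome 17, 36334153 to 36334361) ran from 17 to 225 bp after the TSS, and the OPC peak in exon 2 ran from 472 to 676 bp, with 246 bp between them. Both lists therefore had a peak in the first kilobase of E2f3, at different places. At Rbl2 an iOL peak (chromosome 19, 17592222 to 17592430) lay 157 bp from the OPC peak in the CpG island at -245.2 kb. Another iOL peak lay 3.16 kb from the LTR peak at -338.2 kb. Ccnd1 had an iOL peak 4.60 kb from its OPC peak at -115.2 kb. Cdkn1a had one 5.56 kb from the peak in Cpne5, and Cdk1 one 6.38 kb from the peak in Rhobtb1. Apart from E2f3, these pairs lay over 50 kb from the TSS of the cell cycle gene.

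**Figure D4:**
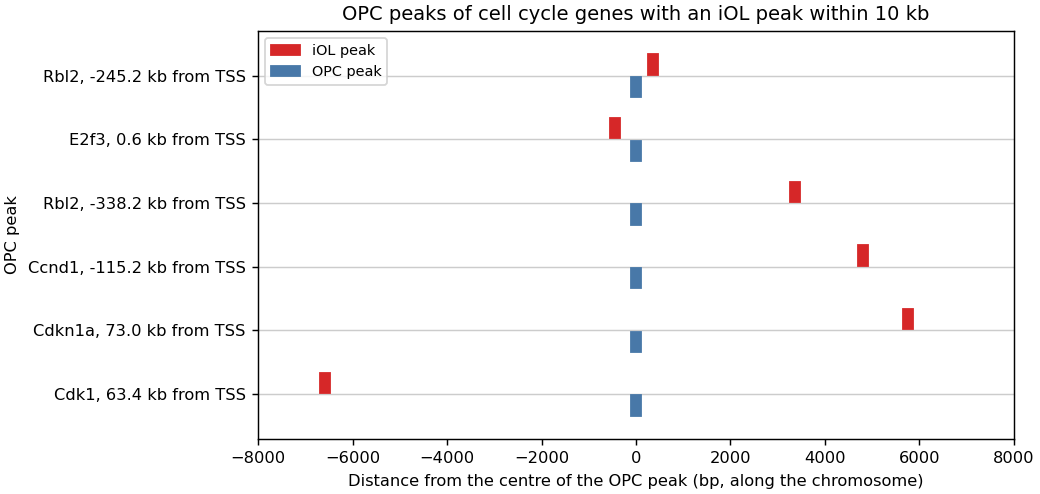
The 6 OPC peaks of cell cycle genes with an iOL peak within 10 kb, each drawn at the centre with the iOL peak at its distance along the chromosome (horizontal axis, in bp; iOL above the line in red, OPC below it in blue, widths to scale). At Rbl2 and E2f3 the peaks stand 157 and 246 bp apart without overlap, and the other 4 pairs are 3.16 to 6.38 kb apart.

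For 10 genes with several OPC peaks the TSS could be inferred from the authors' distances, which placed iOL peaks against it. E2f3 was the only one of these 10 with an iOL peak within 10 kb of the inferred TSS, centred at 121 bp. The nearest iOL peak lay 30.7 kb from the TSS of Ccnd1, 45.5 kb from that of Cdkn1c, 51.8 kb from that of Mki67, 55.3 kb from that of Aurkb and 56.8 kb from that of Cdk1. It was farther away for Mycn (124.2 kb), Myc (222.2 kb), Rbl2 (245.5 kb) and Mdm2 (431.2 kb). The OPC peak in the first exon of Cdkn2a had the widest gap of the 35, with the nearest iOL peak 499.5 kb away, and that of Bub1b was 103.5 kb from one.

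**Figure D5:**
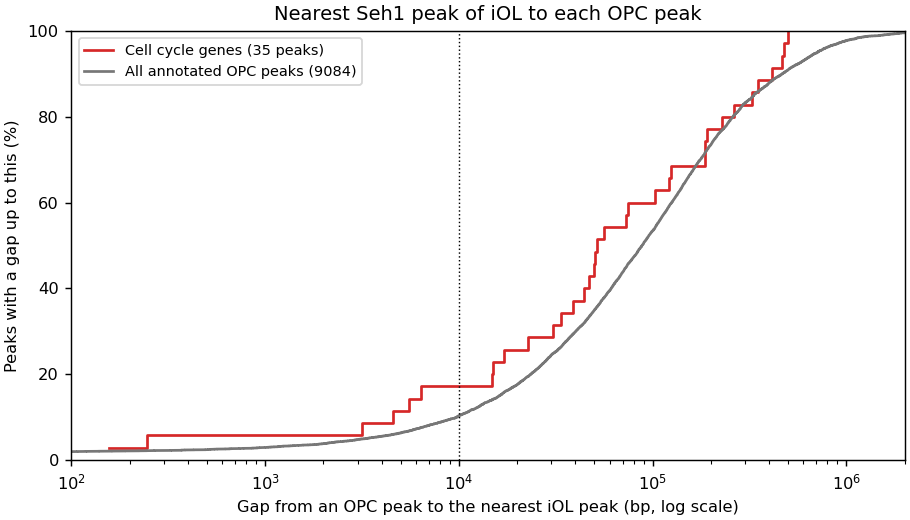
Cumulative percent of OPC peaks by the gap to the nearest iOL peak (horizontal axis, in bp, log scale), for the 35 peaks of cell cycle genes and for all 9084 annotated OPC peaks. At 10 kb (dotted line) the curves stand at 17.1 and 10.3%, and at the median the gaps are 51.5 and 88.3 kb.

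Of the 31 cell cycle genes without an OPC peak, 16 had a peak at a directly adjacent coding gene in the order of assembly GRCr8, and 15 had none on either side. The 16 made up 51.6% (95% exact binomial interval 33.1 to 69.8%), an interval that holds the 45.4% of all coding genes without a peak. Peaks at both adjacent genes were found for 3 (9.68%, beside 9.26% of all coding genes without a peak), which were Mcm2, between Podxl2 and Tpra1, E2f8, between Csrp3 and Nav2, and Cdkn2b, between Cdkn2a and Dmrta1. Distances from the genes without a peak to the nearest OPC peak were not measured, since no rn6 annotation was at hand.

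A wider list of 70 other cell cycle genes, for replication, checkpoints, spindle and chromosome segregation, gave 24 genes with an OPC peak (34.3%, beside 30.1%), 6 within 10 kb of the TSS (8.57%, beside 11.1%) and 3 within 1 kb (4.29%, beside 4.46%). Gins1, a subunit of the replicative helicase, had a promoter peak at 52 bp (chromosome 3, 146695316 to 146695520, score 8.3). Mybl2, a transcription factor of proliferating cells, had one in its 5' UTR at 107 bp, and Ttk, a spindle checkpoint kinase, one in its first intron at 256 bp, each with a score of 7.02. Orc2, of the origin recognition complex, had a LINE peak at -1134 bp (score 7.66). Bub3, of the spindle checkpoint, had a peak at -3341 bp at the end of the gene Hmx2 (score 8.3), and Tfdp1, the partner of E2F proteins, an intron peak at 6842 bp (score 7.02). Of the 36 peaks of this list 0 overlapped an iOL peak, which allows a share of up to 8.33% by 3 counts, beside 1.73% of all annotated OPC peaks. An iOL peak lay within 10 kb of 1 (beside 10.3% of all), the peak in the last exon of Cdca8, a chromosomal passenger gene, at a gap of 1197 bp.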

How the data were processed

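Seh1 ChIP-seq of rat iOL and OPC, 1 library each, was used as deposited, and the IgG library of iOL was not analysed here. The submitters' processing notes name Bowtie2 and HOMER (no versions given) and the builds rn6 and hg18. The sources used here do not give peak thresholds, duplicate removal or the handling of reads with several matches, which can move peaks among repeat copies. The authors deposited a position list per Seh1 library and 1 annotated table. Per the file headers, that table came from annotatePeaks.pl of HOMER, run on rn6 with peaks of OPC named with the IgG of iOL. It is filed under iOL, but 9084 of its 9084 intervals are in the OPC list and 0 in the iOL list, so it was used for OPC; 33 further OPC peaks have no annotation. The deposited score per peak has no definition in the header. The deposited focus ratio is a fraction from 0 to 1 per peak.

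Peaks were tied to genes by the table's numeric gene ID, with names from RefSeq assembly GRCr8 (99.2% of intervals matched), and the background was the coding genes with a curated transcript. A gap counts the bases between peak edges. A TSS was inferred where all distances of a gene placed it within 2 bp. Intervals are exact binomial (scipy 1.17.1, Python 3.11.15), and gap and overlap counts were tested on simulated data. No test was made between stages or against the background. Values were given for each cell cycle gene with a peak and, of the wider list, for genes with a peak within 10 kb of the TSS; the peaks in Cdk6 and Cdca8 were picked after their values were seen. A further gene of the list is not reported here. Members and lists were chosen with earlier results of these data known. Alternatives varied the distance limit, score threshold, repeats, gap and gene matching.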

Additional observations from a re-analysis of the deposited data

How the results depend on the processing

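No paired analysis was possible because each stage had 1 library. The count of 18 cell cycle genes with an OPC peak stayed within 1.5 times under limits of 100 kb (16, beside 25.9% of coding genes) and 50 kb (15, beside 22.1%), without annotated repeats (16, beside 23.3%), by symbol alone (18) and, an alternative chosen after seeing the data, without the peak on another chromosome (17, beside 29.9%). It was 10 of 49 within 10 kb of the TSS (beside 11.1% of coding genes) and 6 of 49 with scores above the median (also beside 11.1%). The count of 6 of 35 peaks with an iOL peak within 10 kb became 4 at 5 kb (beside 6.25% of all OPC peaks), 9 at 20 kb (beside 17.5%) and 16 at 50 kb (beside 34.9%). It was 0 by an overlap of 1 bp (beside 1.73%), 0 by an overlap of at least 50% of the OPC peak (beside 1.42%) and 0 among peaks scoring above the median, of which 13.4% in the whole list had an iOL peak within 10 kb. The share between genes was 85.7% among the peaks scoring above the median, 6 of only 7, beside 57.1% of all OPC peaks above it. The median score stayed between 7.02 and 7.66. Fewer peaks enter under the stricter score and distance limits by construction. With 1 library per stage, unknown depth and 35 peaks, small differences from the background were not detectable.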

Other observations

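The focus ratio, which the caller reports per peak, had the same median of 0.778 for the 35 peaks and for all annotated OPC peaks. It was lowest at the RatSatRep2 copy near Myc (0.485) and at the promoter of Mki67 (0.565), and highest at the Aurkb peak at -4485 bp (0.957). In the wider list the highest scores were at a CpG island 69.7 kb from the TSS of Nek2, a centrosome kinase (12.1), in exon 12 of 15 of the checkpoint kinase gene Chek2 (10.9) and in an intron of the spindle checkpoint gene Mad1l1 (10.2). These were chosen after their values were seen.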
